A study of Homo sapiens with 2 samples.

Results

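The genes described here are 10 regulators and markers of the epithelial-mesenchymal transition (EMT), taken by gene symbol: the mesenchymal markers VIM and FN1, the cadherins CDH1, CDH2 and CDH11, and the transcription factors ZEB1, ZEB2, SNAI1, SNAI2 and TWIST1. All 10 were found among the 49627 genes listed in both libraries. They were measured by RNA-seq in 2 libraries made from MDA-MB-231, a human cell line of triple-negative breast cancer grown in L15 medium with serum and without carbon dioxide. One came from cells with stable depletion of RBMS1, an RNA-binding protein, by a pLKO.1 short hairpin RNA lentivirus and puromycin selection, and the other from control cells. The study used the empty pLKO.1 vector as its negative control. Each group was 1 library, so the groups could not be tested against each other, no replicate error was at hand, and what follows describes these 2 libraries.

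During EMT, epithelial cells lose the junctions that hold them to their neighbours and gain a motile, mesenchymal shape. The SNAI and ZEB zinc finger proteins and the helix-loop-helix protein TWIST1 bind E-box motifs in DNA and repress epithelial genes, of which CDH1 (E-cadherin) is the best known target, while vimentin, fibronectin and N-cadherin mark the mesenchymal state. MDA-MB-231 is widely used as a mesenchymal breast cancer line that lacks E-cadherin.

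Levels are given in FPKM, a measure of fragments scaled to the length of the transcript and to the size of the library, added up over the transcripts of a gene. The intervals are those that Cufflinks gives within a library, summed over the transcripts above 0, and they do not cover variation between cultures. The log2 ratio compares knockdown with control after adding 1 FPKM to both, and so understates the differences of low genes. RBMS1 itself was at 3.76 FPKM in knockdown cells and 24.1 FPKM in control cells, or 15.6% of control. Of the 11186 genes with a mean of at least 1 FPKM, 83.5% had a log2 ratio within 0.5 of 0, and the median log2 ratio was 0.02. All 6 markers of basal-like and mesenchymal breast cells (VIM, CD44, AXL, MSN, CAV1 and EGFR) were above 1 FPKM in both libraries. Of 9 markers of receptor-positive breast epithelium, 6 were above 1 FPKM in both libraries, with a sum of 418 FPKM in knockdown cells and 394 FPKM in control cells. The keratins KRT8, KRT18 and KRT19 carried most of this sum, at 160, 162 and 84.4 FPKM in knockdown cells and 122, 190 and 69.6 FPKM in control cells. The hormone receptor genes ESR1 and PGR were under 0.1 FPKM in both. No fibroblast, endothelial or blood marker reached 1 FPKM, and the 6 fibroblast markers summed to 1.55 FPKM in knockdown cells and 2.39 FPKM in control cells. Of 3 neural markers, TUBB3 was at 13.9 FPKM in knockdown cells and 10.6 FPKM in control cells, and NCAM1 and GFAP were listed at 0 in both.

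VIM and FN1 were the most abundant of the 10 genes in both libraries, and CDH1 and TWIST1 the least abundant. In knockdown cells the order of levels was VIM, FN1, ZEB1, SNAI2, CDH11, ZEB2, CDH2, SNAI1, CDH1 and TWIST1. In control cells CDH11 stood above ZEB1 and SNAI2, and the order was otherwise the same. The intervals of ZEB1 and SNAI2 overlapped in both libraries. Those of SNAI2 and CDH11 overlapped in knockdown cells, those of CDH11 and ZEB1 in control cells, and those of SNAI1 and CDH1 and of CDH1 and TWIST1 overlapped in both. The steps from VIM to FN1, from FN1 to the next gene, and on each side of ZEB2 and CDH2 were larger than the intervals. Of the 10 genes, 6 had a mean of at least 1 FPKM, and 0 of these 6 differed by 2-fold, beside 5.76% of all genes at that level. When the upper bounds that Cufflinks gives to transcripts listed at 0 were added, the intervals of VIM and of FN1 still did not overlap between knockdown and control cells, whereas those of CDH2, CDH11 and ZEB1 did. The other 4 genes were under 1 FPKM in both libraries, where a log2 ratio with 1 FPKM added cannot reach 2-fold.

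**Figure D1:**
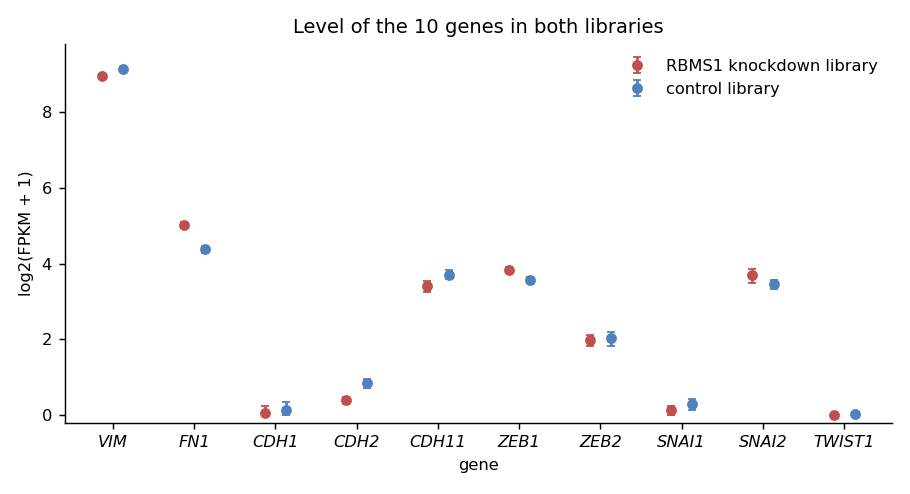
Level of the 10 genes as log2(FPKM + 1) in the RBMS1 knockdown library (red) and control cells (blue), with bars for the within-library interval. FN1 and ZEB1 sit higher and VIM, CDH2 and CDH11 lower in knockdown cells with bars that do not overlap, and CDH1, SNAI1 and TWIST1 lie near 0 in both.

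VIM encodes vimentin, the intermediate filament protein of mesenchymal cells. It lies on GRCh38 at chr10:17228259-17237593. VIM was at 496 FPKM (474.6 to 517) in knockdown cells and at 563 FPKM (540 to 587) in control cells. It was thus lower in knockdown cells, at 88.0% of control, by an amount larger than the intervals but small on the log2 scale (log2 ratio −0.18). Of the 11186 genes tested, 24.0% had a log2 ratio at or below that of VIM, so the shift lay well inside the range of ordinary genes. VIM stood at the 99.3rd percentile of level in knockdown cells and the 99.4th in control cells. A single reference transcript, ENST00000224237 with 9 exons, carried the whole VIM value in each library, and the overlapping antisense gene VIM-AS1 was listed at 0 in both.

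FN1 encodes fibronectin, a glycoprotein of the extracellular matrix that binds integrins, and lies at chr2:215360440-215436172 on the minus strand. FN1 was at 31.3 FPKM (29.5 to 33.2) in knockdown cells and at 19.7 FPKM (18.4 to 21.1) in control cells. It was the member that differed most in the upward direction, at 159% of control, with a log2 ratio of 0.64 (0.46 to 0.82 when the interval bounds are set against each other). Of all genes tested, 94.3% had a log2 ratio at or below that of FN1. The difference was shared by all of its transcripts above 0, which were the same 3 in both libraries. ENST00000446046 was at 14.9 FPKM in knockdown cells and 8.97 FPKM in control cells. ENST00000443816 was at 10.7 and 6.42 FPKM, and ENST00000323926 at 5.77 and 4.36 FPKM. Cufflinks marked each of these transcripts as fully supported by reads.

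The 3 FN1 transcripts differ in the exons for which fibronectin is best known, the extra domains A and B (EDA and EDB), which are left out of the plasma form made by liver, and the variable region. Their sequences are shown because the splicing of FN1 is read from them. They were taken from GENCODE transcripts on GRCh38, minus strand, and are written 5′ to 3′. Capitals mark the first and last 10 bases of the EDA exon (chr2:215380811-215381080, 270 bases) and of the EDB exon (chr2:215392931-215393203, 273 bases). In the variable region, the 75 bases that only the longer form of the exon holds (chr2:215372301-215372375) are shown with the codons of the integrin-binding Leu-Asp-Val motif in capitals.

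FN1 EDA exon: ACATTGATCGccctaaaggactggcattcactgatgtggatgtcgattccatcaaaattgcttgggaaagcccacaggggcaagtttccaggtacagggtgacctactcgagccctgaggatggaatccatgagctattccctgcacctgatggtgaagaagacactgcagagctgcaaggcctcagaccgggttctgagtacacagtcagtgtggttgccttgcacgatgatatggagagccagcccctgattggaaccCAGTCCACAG

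FN1 EDB exon: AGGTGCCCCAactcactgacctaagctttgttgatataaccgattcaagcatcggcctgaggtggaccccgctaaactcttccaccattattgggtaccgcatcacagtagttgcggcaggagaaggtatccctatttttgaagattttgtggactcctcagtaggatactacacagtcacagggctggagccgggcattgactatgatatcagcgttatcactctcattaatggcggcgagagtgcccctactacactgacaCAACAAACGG

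FN1 variable region: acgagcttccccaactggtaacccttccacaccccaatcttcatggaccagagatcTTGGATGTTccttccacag

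The EDA exon was included in 66.0% (63.3 to 68.6) of the FN1 FPKM in knockdown cells and in 67.5% (64.4 to 70.5) in control cells. The EDB exon was included in 18.4% (16.6 to 20.4) and 22.1% (19.6 to 24.7). The longer form of the variable-region exon, with 267 rather than 192 bases, made up 52.4% (49.5 to 55.3) in knockdown cells and 54.6% (51.1 to 57.9) in control cells. The intervals of the 2 libraries overlapped for each of the exons, so the higher FN1 level in knockdown cells came with no shift in exon use larger than the intervals. In both libraries most FN1 RNA held EDA and most lacked EDB.

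Of the 3 cadherins, CDH1 was close to 0 and CDH11 was by far the most abundant. CDH1 encodes E-cadherin, the adhesion molecule of epithelial junctions, and lies at chr16:68737225-68835548. It was at 0.0467 FPKM in knockdown cells and 0.0952 FPKM in control cells. The lower bound of its interval was 0 in both libraries, and its upper bound was 0.179 and 0.275 FPKM. The value was split between 3 transcripts in each library, none of them the same in both, with a summed coverage of 0.463 and 1.07 reads per base. CDH1 was thus at the edge of detection in both libraries, and a difference was not detectable at this depth.

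CDH2 encodes N-cadherin, which takes the place of E-cadherin at the junctions of mesenchymal and neural cells, and lies at chr18:27950966-28177446 on the minus strand. CDH2 was at 0.313 FPKM (0.220 to 0.405) in knockdown cells and 0.792 FPKM (0.638 to 0.946) in control cells. Its level in knockdown cells was 39.5% of control, but both levels were low, and the log2 ratio was −0.45. The transcripts behind these values differed. In knockdown cells the value came from ENST00000399380, whose annotated start is at position 28036585. In control cells it came from 1 assembled transcript of 15 exons, which begins with an exon of 45 bases (chr18:28018261-28018305). Neither begins at the 5′ end of the gene at position 28177446. Cufflinks did not mark ENST00000399380 as fully supported by reads in knockdown cells. With reference transcripts alone the direction of CDH2 was the opposite, since all of them were listed at 0 in control cells. The study's own comparison, on another scale, held ENST00000399380 at 1.22 FPKM in its control column. The listed 0 therefore does not show that this transcript was absent from control cells. With a pseudocount of 0.1 FPKM the log2 ratio was −1.11.

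CDH11 encodes OB-cadherin, a type II cadherin of osteoblasts and other mesenchymal cells, and lies at chr16:64943753-65126112 on the minus strand. CDH11 was at 9.62 FPKM (8.54 to 10.7) in knockdown cells and 12.1 FPKM (11.01 to 13.2) in control cells. It was lower in knockdown cells, at 79.5% of control (log2 ratio −0.30), and of all genes tested 15.3% had a log2 ratio at or below it. Its transcripts differed far more than its total. In knockdown cells 2 assembled transcripts held 5.11 and 3.07 FPKM and the reference transcript ENST00000268603 held 1.44 FPKM. In control cells ENST00000566827 held 7.56 FPKM and ENST00000268603 held 4.53 FPKM. The assembled transcripts have 13 exons each, begin with other first exons (chr16:65124234-65124292 and chr16:65122294-65122365), and were not listed in control cells.

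ENST00000566827 has 12 exons and skips an exon of 400 bases that holds the start codon of the full CDH11 protein. Its coding length is 2010 bases, against 2388 bases in ENST00000268603.

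This exon was in 100% of the CDH11 FPKM of knockdown cells and in 37.5% (33.6 to 41.7) of that of control cells. Cufflinks marked neither ENST00000566827 nor the assembled transcript at 5.11 FPKM, the most abundant CDH11 transcripts of control and knockdown cells, as fully supported by reads, and ENST00000566827 was listed at 0 in knockdown cells. The division of CDH11 between transcripts also decides its ratio when transcripts are left out. With reference transcripts alone CDH11 was the 1 member of the 10 past 2-fold (log2 ratio −2.42), where 10.2% of all genes were past 2-fold. Its most abundant transcript alone was listed at 0 in knockdown cells.

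Among the transcription factors, ZEB1 and SNAI2 were expressed at about 10 FPKM, ZEB2 at about 3 FPKM, and SNAI1 and TWIST1 close to 0. ZEB1 encodes a zinc finger repressor of CDH1 and lies at chr10:31318495-31529814. It was at 13.3 FPKM (12.6 to 14.02) in knockdown cells and 10.9 FPKM (10.3 to 11.5) in control cells, that is, at 122% of control (log2 ratio 0.26). The intervals did not overlap, and of all genes tested 79.7% had a log2 ratio at or below that of ZEB1. ENST00000320985, with 9 exons, was the only ZEB1 transcript above 0 in either library. The antisense gene ZEB1-AS1 was listed at 0 in both, while the pseudogene SPTLC1P1, which lies within ZEB1 on the same strand, was at 1.82 FPKM in knockdown cells and 2.74 FPKM in control cells.

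ZEB1 also had assembled transcripts of a single exon inside its introns, on its own strand. There were 36 in knockdown cells and 39 in control cells, and 0 on the other strand in both. They covered 34.3 kb (16.9%) and 39.6 kb (19.5%) of the 202.67 kb of ZEB1 intron, at a mean of 3.35 and 2.75 FPKM when weighted by length. Over the 25.968 kb covered in both libraries the mean was 3.25 FPKM in knockdown cells and 2.62 FPKM in control cells, a ratio of 1.24. The ratio of the spliced gene was 1.22. The lowest of the intronic transcripts was at 2.58 FPKM in knockdown cells and 2.16 FPKM in control cells, and weaker intronic signal was not listed. The intronic ratio therefore depends on these floors, and whether intronic and spliced ZEB1 RNA differ by similar amounts was not tested. Single-exon transcripts inside introns were also seen in other genes. ZEB2 had 8 in knockdown cells and 3 in control cells, with a ratio of 0.878 over the 1.84 kb covered in both, where the ratio of the gene was 0.956. RBMS1 itself had 77 in knockdown cells and 41 in control cells. Their mean was 0.779 and 1.52 FPKM over the 28.117 kb covered in both, a ratio of 0.511 where the ratio of the gene was 0.156. The lowest RBMS1 intronic transcript was at 0.432 FPKM in knockdown cells and 1.03 FPKM in control cells. The RBMS1 counts and ratio thus depend on unequal floors, and are not a measure of all its intronic RNA.

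**Figure D2:**
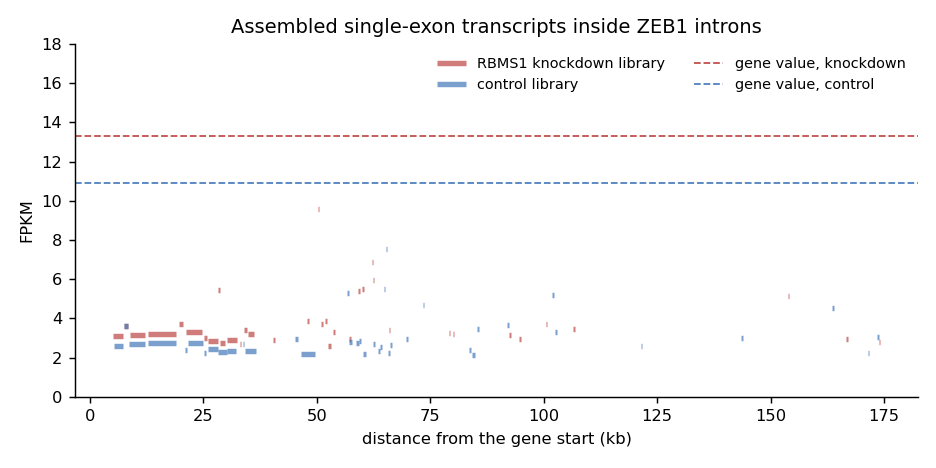
FPKM of the single-exon assembled transcripts inside ZEB1 introns against the distance from the gene start in kb, with knockdown in red, control in blue, the length of a bar giving the length of the transcript and dashed lines giving the level of the gene. Over the stretches covered in both libraries, which lie mostly in the first part of the gene, the mean was 3.25 FPKM in knockdown cells and 2.62 FPKM in control cells.

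ZEB2 encodes the second zinc finger repressor of this family, and lies at chr2:144364364-144524583 on the minus strand. ZEB2 was at 2.95 FPKM (2.56 to 3.34) in knockdown cells and 3.09 FPKM (2.56 to 3.61) in control cells, with overlapping intervals and a log2 ratio of −0.05. The spliced transcript ENST00000303660 was at 2.05 FPKM in knockdown cells and 1.62 FPKM in control cells. A transcript annotated as a retained intron, ENST00000625161, was at 0.896 and 0.852 FPKM, and control cells had 1 assembled transcript at 0.613 FPKM. With reference transcripts alone ZEB2 therefore had a log2 ratio of 0.19. Outside the gene value, ZEB2 had 3 single-exon assembled transcripts over its exons in knockdown cells and 4 in control cells, on its own strand. They summed to 2.04 and 2.26 FPKM, and with them added ZEB2 was at 4.99 FPKM in knockdown cells and 5.35 FPKM in control cells (log2 ratio −0.08). The paralogs ZEB1 and ZEB2 thus differed in level by several fold in both libraries, and the intervals of the transcripts above 0 overlapped between the libraries for ZEB2 and not for ZEB1. Whether the 2 ratios differ from each other was not tested.

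SNAI2 encodes SLUG and lies at chr8:48917604-48921740 on the minus strand. SNAI2 was at 11.9 FPKM (10.3 to 13.5) in knockdown cells and 9.95 FPKM (9.11 to 10.8) in control cells. The log2 ratio was 0.24, and the intervals overlapped. The reference transcript ENST00000020945 had the opposite direction, with 8.08 FPKM in knockdown cells and 9.95 FPKM in control cells (log2 ratio −0.27). The remainder of the knockdown value came from 2 assembled transcripts, at 2.04 and 1.78 FPKM, that were not listed in control cells. The direction of SNAI2 therefore turned on whether these transcripts were counted.

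SNAI1 encodes SNAIL, a repressor of E-cadherin, and lies at chr20:49982999-49988886. It was at 0.0907 FPKM (0 to 0.186) in knockdown cells and 0.224 FPKM (0.0997 to 0.348) in control cells. The intervals overlapped, and the log2 ratio was −0.17. TWIST1, at chr7:19020991-19117672 on the minus strand, was listed at 0 in knockdown cells and at 0.0175 FPKM (0 to 0.0680) in control cells. With such low levels, a difference in SNAI1 or TWIST1 was not detectable at this depth. In bulk RNA, moreover, a low level in all cells and expression in a few cells cannot be told apart, and neither can fewer cells and less RNA per cell.

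**Figure D3:**
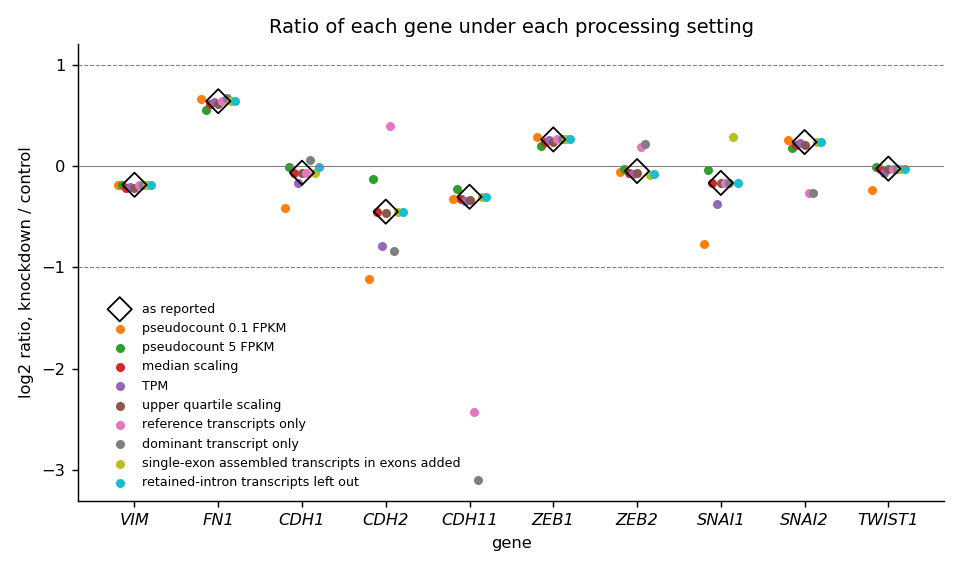
Log2 ratio of knockdown over control for each of the 10 genes as reported (open diamonds) and under 9 other processing settings (dots), with dashed lines at 2-fold. VIM, FN1 and ZEB1 kept their direction under each setting, CDH11 reached −3.10 with its most abundant transcript alone, which was listed at 0 in knockdown cells, and CDH2, ZEB2, SNAI1 and SNAI2 had dots on both sides of 0, as did CDH1 by a small margin.

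The study's table of its own comparison, which covers 7236 transcripts and is on another scale than the single libraries (a median of 1.82 times the library FPKM in knockdown cells and 1.85 times in control cells), held transcripts of 3 of the 10 genes, FN1, CDH1 and CDH2. FN1 ENST00000446046 was at 23.2 FPKM in the knockdown column and 14.7 FPKM in the control column, and ENST00000443816 at 19.0 and 11.4 FPKM. Another 2 FN1 transcripts, ENST00000426059 at 1.28 and 0.318 FPKM and ENST00000432072 at 0.671 and 0.161 FPKM, were listed at 0 in both single libraries. CDH1 ENST00000422392 was listed at 0 in the knockdown column and at 0.101 FPKM in the control column. CDH2 ENST00000399380 was at 0.536 FPKM in the knockdown column and 1.22 FPKM in the control column, although it was listed at 0 in the single control library. A second CDH2 transcript, ENST00000269141, was listed at 0 in the knockdown column and at 0.215 FPKM in the control column. The table is a selection of transcripts by the authors, and nothing was read from the absence of the other 7 genes.

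The E-box bound by SNAI and ZEB proteins was searched in the promoters of the 10 genes, since these factors are known to act on each other's genes. The motif was CACCTG or its reverse complement CAGGTG, in RefSeq windows of 300 bases around the transcription start (GRCh38.p14). It was present in 20.6% of all 35116 windows. Windows were at hand for VIM, FN1, CDH2, ZEB1 and ZEB2, 12 windows in all. The motif was in 2 of the 7 windows of ZEB1, and in 0 of the other 5 windows.

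Genes with related functions were then described from 8 lists, with the counts of all genes as background. Over all genes tested, 2.8% were at least 2-fold lower and 2.96% at least 2-fold higher in knockdown cells. Of 21 other EMT-related transcription factors, 10 were tested, of which 0 were 2-fold lower and 1 was 2-fold higher, with a median log2 ratio of 0.12. TCF12, a helix-loop-helix partner of TWIST proteins, was lowest in ratio, at 4.67 FPKM in knockdown cells and 8.79 FPKM in control cells (log2 ratio −0.79), and YBX1 was the most abundant at 321 and 332 FPKM. TWIST2, PRRX2, FOXC2, FOXQ1 and GSC, named here after their values were seen, were listed at 0 in both libraries.

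Of 30 symbols of corepressors and regulators of the SNAI, ZEB and TWIST proteins, 29 were found and 25 were tested. Of these, 0 were past 2-fold in either direction, with a median log2 ratio of −0.03. TRIM28 was the most abundant, at 81.8 FPKM in knockdown cells and 88.5 FPKM in control cells. BMI1, a Polycomb protein known to act with TWIST1, was lowest, at 9.99 and 19.5 FPKM (log2 ratio −0.90). FBXO11, a ubiquitin ligase subunit that targets SNAIL, was at 15.4 and 12.5 FPKM (log2 ratio 0.29), and at −0.41 with reference transcripts alone.

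Epithelial genes were mixed. Of 18 epithelial regulators, 7 were tested, of which 1 was 2-fold lower and 0 were 2-fold higher, with a median log2 ratio of −0.25. The one past 2-fold was EHF, an ETS factor of epithelial cells and the most abundant of the list by the mean of both libraries, at 8.68 FPKM in knockdown cells and 25.1 FPKM in control cells (log2 ratio −1.43). RBM47, an RNA-binding protein, was highest in ratio, at 4.37 and 3.31 FPKM (log2 ratio 0.32). Of 40 epithelial adhesion and keratin genes, 20 were tested, with 1 past 2-fold in each direction and a median log2 ratio of 0.04. DSG2, a desmosomal cadherin, was at 9.08 and 19.2 FPKM, with a log2 ratio of −1.001 at the threshold. KRT18 was the most abundant, at 162 and 190 FPKM (log2 ratio −0.22), so a simple epithelial keratin stood at a high level in both libraries beside CDH1 near 0.

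Mesenchymal genes also went both ways. Of the 63 symbols in the list, 61 were found and 37 were tested, of which 2 were 2-fold lower and 4 were 2-fold higher, with a median log2 ratio of 0.06. The lower ones included TGFBI, a matrix protein induced by TGF-beta, at 6.59 FPKM in knockdown cells and 18.1 FPKM in control cells (log2 ratio −1.33). The higher ones included S100A4, a calcium-binding protein and the most abundant of the list by the mean of both libraries, at 445 and 178 FPKM (log2 ratio 1.32), and TIMP3, a metalloproteinase inhibitor, at 49.1 and 17.9 FPKM (log2 ratio 1.40). TAGLN, an actin-binding protein, was at 12.04 FPKM in knockdown cells and listed at 0 in control cells. The fourth, FSCN1, an actin-bundling protein named after its values were seen, was at 7.87 and 3.13 FPKM (log2 ratio 1.10). The median of the list was close to that of all genes although the members past 2-fold ranged over both directions.

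**Figure D4:**
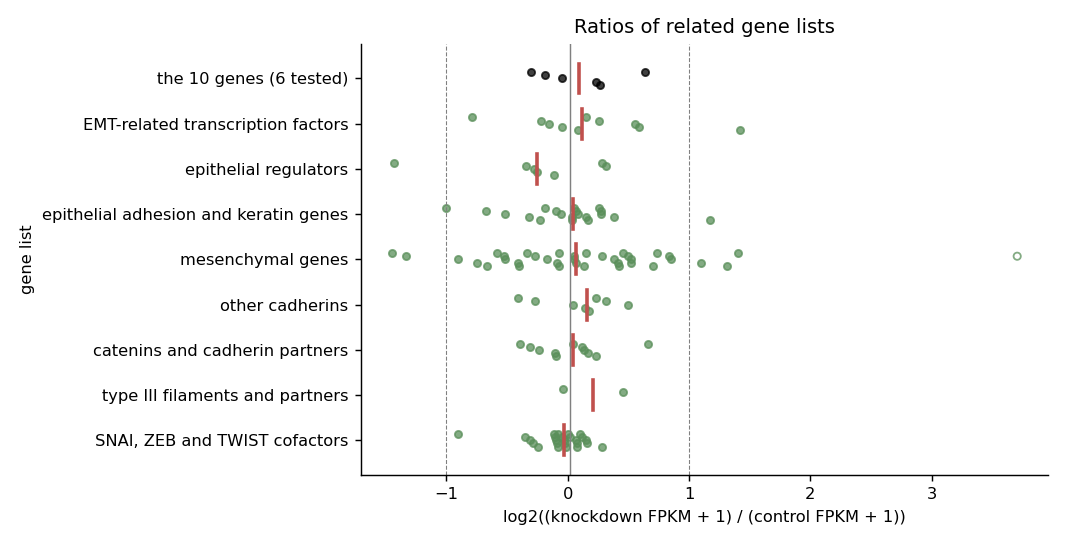
Log2 ratio of knockdown over control for the genes with a mean of at least 1 FPKM, by list, with red bars for list medians, a grey line for the median of all genes (0.02), dashed lines at 2-fold and an open symbol for TAGLN, which was listed at 0 in control cells. The 6 tested members of the 10 genes (black) all lie inside the dashed lines, and genes outside them are in the transcription factor, epithelial and mesenchymal lists.

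Of 37 other classical and atypical cadherins, 8 were tested, 0 were past 2-fold in either direction, and the median log2 ratio was 0.16. A further 21 were under 0.1 FPKM or listed at 0 in both libraries. The giant cadherin FAT1 was the most abundant by the mean of both libraries, at 32.7 FPKM in knockdown cells and 27.6 FPKM in control cells (log2 ratio 0.23), and its log2 ratio was 1.88 with reference transcripts alone. FAT3 was at 1.15 and 1.85 FPKM (log2 ratio −0.41) and FAT4 at 9.66 and 6.57 FPKM (log2 ratio 0.49). Of 16 symbols of catenins and partners of cadherins, 15 were found and 11 were tested. Of these, 0 were past 2-fold in either direction, with a median log2 ratio of 0.04. CTNNAL1 was at 123 and 113 FPKM, JUP (plakoglobin) at 4.70 and 6.49 FPKM (log2 ratio −0.39), and VCL (vinculin) at 62.4 and 39.1 FPKM (log2 ratio 0.66, and 0.12 with reference transcripts alone).

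Of the 6 other type III intermediate filament genes and partners of vimentin, 2 were tested and 0 were past 2-fold. PLEC (plectin), which links intermediate filaments to junctions, was at 111 FPKM in knockdown cells and 114 FPKM in control cells (log2 ratio −0.04). SYNM (synemin) was at 3.68 and 2.41 FPKM (log2 ratio 0.46). Of the other type III filament genes, named after their values were seen, the muscle gene DES was at 0.0528 FPKM in knockdown cells and listed at 0 in control cells, and GFAP and PRPH were listed at 0 in both.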

How the data were processed

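The 2 RNA-seq libraries, 1 of RBMS1 knockdown and 1 of control MDA-MB-231 cells, were grouped by their labels. Per the labels, the processing notes of the submitters name Bowtie2 2.0.6, TopHat2 2.0.9, Cufflinks 2.1.1 and Cuffdiff 2.1.1. For each library the authors deposited reference transcripts and transcripts assembled from the reads, with their FPKM and within-library interval as Cufflinks attributes. They also deposited a table of their comparison that holds FPKM columns beside fold changes and p- and q-values, of which only the FPKM columns were used here. The genome build and the strand of the reads are not given in the sources used here. Joined on Ensembl identifiers, 98.1% of the reference transcripts began where GENCODE release 29 (GRCh38) places them, which gave names and coordinates.

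Gene FPKM was obtained by adding the reference transcripts to those assembled transcripts that had at least 1 intron in common with the gene and lay on its strand. Assembled transcripts of a single exon were kept apart. The ratio was log2((knockdown + 1)/(control + 1)), a gene was counted with a mean of at least 1 FPKM, and 2-fold was an absolute log2 ratio of at least 1. The share of an exon was the FPKM of the transcripts that include it, and its interval set the low bound of one class against the high bound of the other. A value of exactly 0 can be a failed estimate, and these genes are called listed at 0. Reads of overlapping genes, antisense genes and near-identical copies could have been divided between them. The median coverage per FPKM was 12.3 (knockdown) and 11.3 (control), and the total of reads is unknown.

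The 10 genes and the 8 lists were chosen with earlier results of these data known. Named in each list are the member with the highest level and up to 3 members with the largest decrease and increase past 2-fold, or 1 of each where none was past 2-fold. Some genes that this rule names, and 1 sequence, are not reported here. Alternatives changed the pseudocount, the scaling, the transcripts counted and the filter. Values were computed with Python 3.11.15 and drawn with matplotlib 3.10.9.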

Additional observations from a re-analysis of the deposited data

Results flagged for a closer look

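Cufflinks assembled a single-exon transcript over the last exon of SNAI1, on the same strand, in knockdown cells at 0.405 FPKM, and none in control cells. It was looked at because it is outside the gene values, which count no single-exon assembled transcripts. With it added, SNAI1 was at 0.495 FPKM in knockdown cells and 0.224 FPKM in control cells (log2 ratio 0.29), the opposite direction to the reported log2 ratio of −0.17. A further single-exon transcript, at 0.404 FPKM, lay in the intron of SNAI1 in knockdown cells. Whether the 2 transcripts are part of SNAI1 RNA was not tested, and there is no replicate of either library. ZEB2 also had single-exon transcripts over its exons, in both libraries, as given above.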

How the results depend on the processing

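No paired analysis was possible because each group has 1 library, and for the same reason no library could be left out. Of 90 member ratios under the alternatives, 82 stayed inside the wider within-library interval, which adds the upper bounds of transcripts listed at 0, and 8 did not. These were CDH2 with a pseudocount of 0.1 FPKM (log2 ratio −1.11) and with reference transcripts alone (all listed at 0 in control cells), CDH11 with reference transcripts alone (−2.42) and with its most abundant transcript alone (listed at 0 in knockdown cells), SNAI1 with a pseudocount of 0.1 FPKM (−0.76) and with its single-exon transcript added (0.29), and SNAI2 with reference transcripts or the most abundant transcript alone (−0.27 in both). The count of members past 2-fold went from 0 to 1 (CDH11) with reference transcripts alone and with the most abundant transcript alone. Of the 11186 genes tested, 313 were 2-fold lower and 331 higher. These counts became 133 and 124 with a pseudocount of 5 FPKM, over the same genes. In TPM they were 671 and 662 of 13711 genes. They were 507 and 553 of 10407 genes with reference transcripts alone, and 582 and 613 of 10424 with the most abundant transcript alone. At a mean of at least 5 FPKM they were 138 and 140 of 7248 genes. Among genes above 0 in both libraries they were 171 and 169 of 10882. Of 72 list medians 2 moved by more than the median half-width of the within-library intervals of the list's genes, both of the intermediate filament list, from 0.21 to 0.52 in TPM and to −0.0403 at a mean of at least 5 FPKM. Within that tolerance, the sign of the median also differed for the epithelial adhesion list (−0.0987) and the corepressor list (0.0443) with reference transcripts alone and for the mesenchymal list with no filter (−0.0723), and the median of the EMT-related factors reached 0.31 with the most abundant transcript alone. Apart from the settings that define fewer transcripts or genes, the cause was not tested. Alternatives that add single-exon transcripts, leave out retained introns or keep genes above 0 in both libraries were chosen after the data had been seen. Depth limits CDH1, CDH2, SNAI1 and TWIST1, which were under 1 FPKM in both libraries.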
